A study of Mus musculus with 16 samples.

Results

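Genes for m6A readers, the proteins that bind N6-methyladenosine (m6A, adenosine carrying a methyl group within an RNA chain), were examined in bone of mice that had lost their ovaries by ovariectomy, a common model of postmenopausal osteoporosis, and of mice that had a sham operation. The 10 genes, chosen by name, were Ythdf1, Ythdf2, Ythdf3, Ythdc1, Ythdc2, Igf2bp2, Igf2bp3, Elavl1, Prrc2a and Fmr1. All 10 were among the 25239 genes of the authors' deposited RNA table, and 7 of them carried 18 of the 13083 peaks in the authors' deposited m6A table. Per the labels the animals were wild type, and the study had 4 input and 4 immunoprecipitated (IP) libraries after ovariectomy and 4 of each after sham operation. In IP libraries the RNA had been pulled down by an m6A antibody, and input libraries show the same kind of RNA without that step. The tables give only comparisons and means over groups of libraries, so levels per library or per arm cannot be given. The RNA comparison was taken as that of the input libraries, which its column headers do not state. The titles put 4 IP libraries in the sham arm, but their treatment label reads ovariectomy, which bears on every m6A difference below. Which arm is the numerator is stated in neither table and may differ between them, so every fold change keeps its sign as deposited and is not read as higher or lower after ovariectomy.

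Readers carry out what an m6A mark does to a transcript. The YTH proteins hold the methyl group in a pocket of their YTH domain: the YTHDF proteins act in the cytoplasm, where YTHDF2 brings the CCR4-NOT deadenylase to a transcript and speeds its decay, and YTHDC1 acts in the nucleus on splicing and export. The IGF2BP proteins and ELAVL1 are known for stabilising the transcripts they bind, and FMR1 for repressing translation in neurons. Bone as sampled here held reads of marrow and muscle genes beside those of bone cell genes. The lowest mean count was 28710 among 6 skeletal muscle markers, 11535 among 4 neutrophil markers and 6144 among 4 red cell markers in the authors' deposited table. It was 135 among 6 B cell, 482 among 6 osteoblast, 2789 among 3 osteocyte and 15.3 among 4 osteoclast markers. No tested gene averaged under 12.4 counts, so a mean above 0 alone does not mark a tissue.

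Of the 10 readers, 4 passed an adjusted p of 0.05 in the authors' deposited table, against 12.2% of the 15396 tested genes. Elavl1, Prrc2a and Ythdf2 had positive fold changes (6.07% of tested genes were called positive), and Igf2bp2 a negative one (6.11% were called negative). The other 6 were not called, and 4 of these were positive as deposited (Fmr1, at -0.003, turned positive when values were centred on the median of tested genes). Of the 10, 7 were positive, beside 46.7% of all tested genes. The median log2 fold change of the 10 was 0.12 in the authors' deposited table, beside -0.02 over all tested genes. The 10 were chosen with earlier results of these data known, so these counts are a description of the genes and not a test of the group. In bulk tissue, fewer cells of a type and less RNA per cell cannot be told apart.

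The promoters of 3 of the 4 called genes are shown: Elavl1 and Ythdf2, with positive fold changes, and Igf2bp2, with the negative one. The stretch of the other called gene, Prrc2a, is not printed and is described by its counts only. Each is the stretch of 210 bases from 250 to 41 bases before the gene's start in RefSeq (GRCm38.p6), written 5′ to 3′ on the gene's strand, with GGGCGG or its reverse complement CCGCCC, and CCAAT or its reverse complement ATTGG, in capitals.
Elavl1 chr8:4325141-4325350 (minus strand): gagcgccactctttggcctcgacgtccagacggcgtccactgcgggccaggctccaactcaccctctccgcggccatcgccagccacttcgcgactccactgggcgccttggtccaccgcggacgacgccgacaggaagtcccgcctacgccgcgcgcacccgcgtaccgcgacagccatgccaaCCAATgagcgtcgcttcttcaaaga
Ythdf2 chr4:132212297-132212506 (minus strand): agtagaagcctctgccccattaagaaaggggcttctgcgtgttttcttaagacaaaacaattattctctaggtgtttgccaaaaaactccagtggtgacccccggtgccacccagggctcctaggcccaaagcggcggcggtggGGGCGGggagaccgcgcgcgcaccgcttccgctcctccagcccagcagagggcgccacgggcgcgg
Igf2bp2 chr16:22163340-22163549 (minus strand): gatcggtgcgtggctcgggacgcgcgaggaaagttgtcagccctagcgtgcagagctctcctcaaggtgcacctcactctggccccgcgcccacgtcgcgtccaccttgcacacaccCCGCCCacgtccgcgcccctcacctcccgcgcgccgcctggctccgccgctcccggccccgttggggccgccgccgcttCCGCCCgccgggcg
The Elavl1 stretch held 1 CCAAT and no GGGCGG on either strand, the Ythdf2 stretch 1 GGGCGG, and the Igf2bp2 stretch 2 copies of CCGCCC. Prrc2a held 1 GGGCGG on either strand, no CCAAT and 13 CG dinucleotides, the fewest of the readers matched. On either strand, GGGCGG occurred in 26.7% and CCAAT in 29.9% of the 32851 stretches of this length in the RefSeq promoter table. CG dinucleotides numbered 28 in Elavl1, 16 in Ythdf2 and 31 in Igf2bp2, against a median of 4 over all stretches. RefSeq promoters were matched for 8 of the 10 readers, and their stretches held between 13 and 31 CG dinucleotides. These matches describe the letters only.

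Among the cytoplasmic YTH readers, only Ythdf2 was called. Ythdf2, the decay reader, had a log2 fold change of 0.23 ± 0.08 (SE) at a mean of 1853 normalised counts in the authors' deposited table (adjusted p = 0.0351). That is a ratio of 1.17 between the arms, with a 95% interval of 1.05 to 1.31. Ythdf1, known for promoting translation of marked transcripts, had 0.09 ± 0.09 in the authors' deposited table (adjusted p = 0.578), with an interval of -0.09 to 0.27. Ythdf3, which works with both of its paralogs, had 0.15 ± 0.12 in the authors' deposited table (adjusted p = 0.454), with an interval of -0.08 to 0.39. All 3 values were positive and their intervals overlapped. Whether the 3 paralogs differ from each other was not tested, since the table gives no covariance between genes.

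The nuclear reader Ythdc1 and the helicase Ythdc2, which in mouse is needed for meiosis, were not called. Ythdc1 had -0.04 ± 0.11 at a mean of 13116 counts in the authors' deposited table (adjusted p = 0.869), with an interval of -0.25 to 0.17. Ythdc2 had 0.06 ± 0.08 at a mean of 1540 counts in the authors' deposited table (adjusted p = 0.710), with an interval of -0.11 to 0.22. The intervals therefore left room for ratios from 0.84 to 1.13 (Ythdc1) and from 0.93 to 1.17 (Ythdc2).

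The IGF2BP readers had the 2 largest fold changes of the 10 in absolute size, and the fewest reads behind them. Igf2bp2 stood at -0.58 ± 0.19 in the authors' deposited table, a ratio of 0.669 (95% interval 0.517 to 0.865, adjusted p = 0.0251), at a mean of 197 counts. Igf2bp3 stood at 0.84 ± 0.40 in the authors' deposited table, at a mean of 49.1 counts, and was not called (p = 0.0375 from the deposited Wald test across all genes, adjusted p = 0.163). Its ratio of 1.79 had an interval of 1.03 to 3.08. The 2 intervals lay on opposite sides of 0 and did not overlap, and the difference between the 2 genes was not tested. Their paralog Igf2bp1 had a mean of 1.11 counts in the authors' deposited table and no adjusted p.

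Cell type markers had these values beside the readers. Over all tested genes, 46.7% had a positive fold change, 6.07% were called positive and 6.11% were called negative. All 6 skeletal muscle markers were negative, 2 of them called (median -1.42), and all 3 marrow stroma markers were negative, 2 of them called, in the authors' deposited table. All 6 B cell markers were called positive (median 1.65) in the authors' deposited table. Of 4 red cell markers, all positive, 3 were called, as were 2 of 5 proliferation markers, also all positive, in the authors' deposited table. Bone cell markers were mixed: of 6 osteoblast markers 3 were positive and 3 negative, with Col1a1 (1.12) and Bglap (1.08) called, in the authors' deposited table. All 4 osteoclast markers were negative, with Ctsk called at -0.72, and all 3 osteocyte markers were negative with none called, in the authors' deposited table. Of 4 neutrophil markers 2 were positive and 2 negative, none of them called. No marker in these lists was at 0, the lowest mean being 15.3 counts for the osteoclast marker Calcr. Summed levels per arm are not in the tables, and the part of these cells in the readers' values was not tested.

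The RNA-binding protein ELAVL1, also called HuR, had the smallest p of the 10. Elavl1 stood at 0.35 ± 0.06 at a mean of 2517 counts in the authors' deposited table (adjusted p = 1.4e-07), a ratio of 1.27 with a 95% interval of 1.18 to 1.37. It ranked 52 by p among the tested genes. Its fold change was not large: it exceeded that of 69.9% of tested genes in absolute size. Its SE was small, at 0.06 against a median of 0.12 among the 1540 tested genes of its count class, 1 of 10 equal classes by mean count (2039 to 3252).

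Prrc2a, a large protein described as an m6A reader in mouse oligodendrocytes, followed with 0.30 ± 0.06 at a mean of 21073 counts in the authors' deposited table (adjusted p = 8.7e-05). Its ratio of 1.23 had a 95% interval of 1.13 to 1.34, and its p ranked 170. The SE was 0.06 for Prrc2a against a median of 0.11 in its class, and 0.08 for Ythdf2 against 0.12. The fold changes of Prrc2a and Ythdf2 exceeded those of 64.7% and 55.0% of tested genes in absolute size. So the 3 positive calls combined mid-sized fold changes with SEs below the median of genes at like counts. A low SE was not particular to them. The SEs of Igf2bp2, Ythdf1, Ythdc1, Ythdc2 and Fmr1 were also below their class medians, and those of Igf2bp3 and Ythdf3 were above. A mid-sized fold change is called only where its SE is small, so this pairing follows in part from the call itself. Fmr1, the gene silenced in fragile X syndrome, stood at -0.003 ± 0.105 at a mean of 5716 counts in the authors' deposited table (adjusted p = 0.991), with an interval of -0.21 to 0.20.

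**Figure D1:**
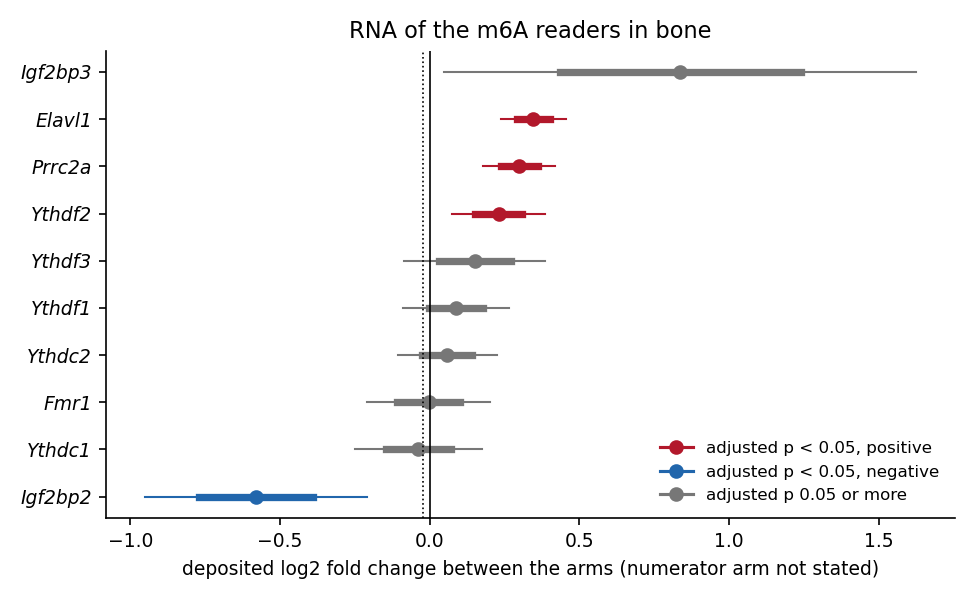
Deposited log2 fold changes of the 10 readers between the arms, with thick bars for 1 SE, thin bars for the 95% interval and a dotted line at the median of all tested genes (-0.02). The intervals of Elavl1, Prrc2a, Ythdf2 and Igf2bp3 lie above 0 and that of Igf2bp2 below it, and Igf2bp3 is not called after adjustment.

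**Figure D2:**
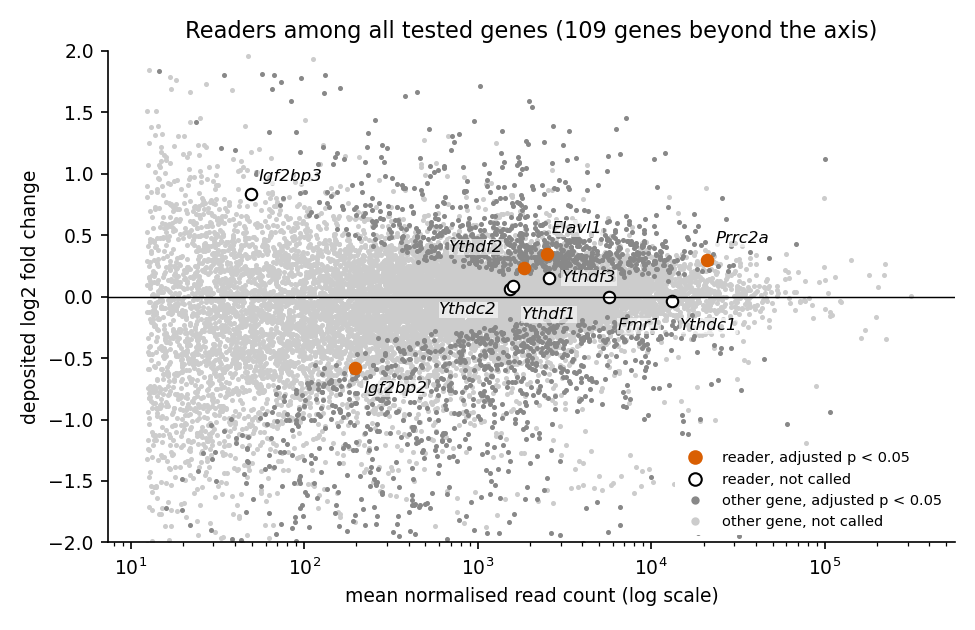
Log2 fold change (vertical) against mean normalised read count (horizontal, log scale) for all tested genes, with the 10 readers marked; 109 genes lie beyond the vertical axis. Igf2bp2 and Igf2bp3 sit at the low-count side, where the spread of fold changes is wide, and the other 8 sit at 1540 counts or more, between -0.04 and 0.35.

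Calls were less frequent at low mean counts. In the count class that holds Igf2bp3 (44.3 to 131 counts) 8.64% of tested genes were called, and in the top class, which holds Prrc2a and Ythdc1, 16.7%, in the authors' deposited table. Igf2bp2 was in a class with 11.0% called, Elavl1 and Ythdf3 in one with 15.6%, and Ythdf1, Ythdf2 and Ythdc2 in one with 15.1%.

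The m6A marks on the readers' own transcripts are described next. The authors' deposited table listed 5 peaks in Ythdc1, 4 in Ythdf3, 3 in Prrc2a, 2 each in Ythdf1 and Fmr1, and 1 each in Ythdf2 and Ythdc2. Elavl1, Igf2bp2 and Igf2bp3 had no listed peak. So 7 of the 10 readers had one, beside 44.3% of all tested genes, which were not matched by count. In the count classes that hold these 7 genes, between 58.8% and 73.7% of tested genes had a peak. A peak is listed only where it was called, and listed peaks were rarer at low counts: 66.4% of tested genes in the count class of Elavl1 had a peak, 24.95% in that of Igf2bp2 and 12.2% in that of Igf2bp3. Of the 6847 genes with a peak, 5.20% had at least the 5 of Ythdc1 and 10.5% at least the 4 of Ythdf3. These shares are not at like counts. Ythdc1 was in the top count class, where 73.7% of tested genes had a peak, and Ythdf3 in one with 66.4%.

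Enrichment of IP over input, the authors' own value for each peak, lay between 1.27 and 2.61 in the readers. Its median was 1.98 over the 18 peaks, beside 1.82 over all peaks (quartiles 1.54 and 2.20). Of the 18, 9 reached 2 in the authors' deposited table, and of all peaks 37.3% did. The readers' peaks covered a median of 175.5 exonic bases (151 over all peaks), and 8 of the 18 (44.4%) spanned more than 1 exon block, beside 40.1% of all. Enrichment over input is what chose every peak in the table, so it was not tested.

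The 5 peaks of Ythdc1 were spread from the start of the gene to its end. Positions are those of the peak table, counted from 1; all 18 peaks lay inside the gene of their name on GRCm38, as did 99.8% of the 13026 peaks with an annotated symbol. The first (chromosome 5, 86804316 to 86804464) lay 1.03% to 1.48% of the way along the gene and had an enrichment of 2.29 in the authors' deposited table. The second (86816595 to 86816695) and next (86816908 to 86817255), 212 bases apart, had 2.60 and 1.88 in the authors' deposited table. One further 3′ (86827970 to 86828555) had 2.36 over 2 exon blocks in the authors' deposited table. The last (86831980 to 86836064) covered 547 exonic bases in 3 blocks, ended at 98.2% of the gene and had 2.61 in the authors' deposited table, the highest of the readers. All 5 were above the median of all peaks.

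Ythdf3 had a wider range, with the 2 lowest enrichments of the readers beside a high one. Its first peak (chromosome 3, 16183514 to 16187034) joined 3 blocks near the start of the gene and had 1.29 in the authors' deposited table. Peak 2 (16204123 to 16204273) and peak 3 (16204472 to 16204572) had enrichments of 1.73 and 1.27 per the authors' deposited table. Its last, peak 4 (16204771 to 16213998), covered 698 exonic bases, the most of any reader peak, and had 2.35 in the authors' deposited table. Peaks 2, 3 and 4 were separated by 198 bases each and carried the same peak p (2.0e-11). Sharing of a p between neighbouring peaks was common: 1729 of 6236 neighbouring pairs within a gene (27.7%) had the same deposited log10 p, so peaks of 1 gene are not independent observations.

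Both paralogs of Ythdf3 had fewer peaks. In Ythdf2 a single peak of 349 bases (chromosome 4, 132204288 to 132204636), in the 5′ part of the gene span at 27.9% to 29.1%, had 2.24 in the authors' deposited table. Ythdf1 had 1.58 at its first peak (chromosome 2, 180911822 to 180911971) and 2.18 at its second (180910881 to 180911030), 791 bases further 3′, in the authors' deposited table. Each of these covered 150 bases in 1 block. The gene span includes introns, so these positions do not say which exon or which part of the transcript a peak lies in.

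Prrc2a, Fmr1 and Ythdc2 complete the set. From 5′ to 3′, the peaks of Prrc2a (chromosome 17, 35159927 to 35160496, 35156350 to 35156648 and 35155605 to 35155754) had enrichments of 1.39, 1.62 and 2.08 in the authors' deposited table. The Prrc2a values were higher towards the 3′ side. In Fmr1 the peaks (chromosome X, 68700144 to 68703745 and 68710620 to 68713294) had 2.27 and 1.81 over 3 blocks each in the authors' deposited table. For Ythdc2 the only peak (chromosome 18, 44841401 to 44845703) had 1.5 over 151 exonic bases in the authors' deposited table, and its enrichment exceeded that of 21.2% of all peaks.

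**Figure D3:**
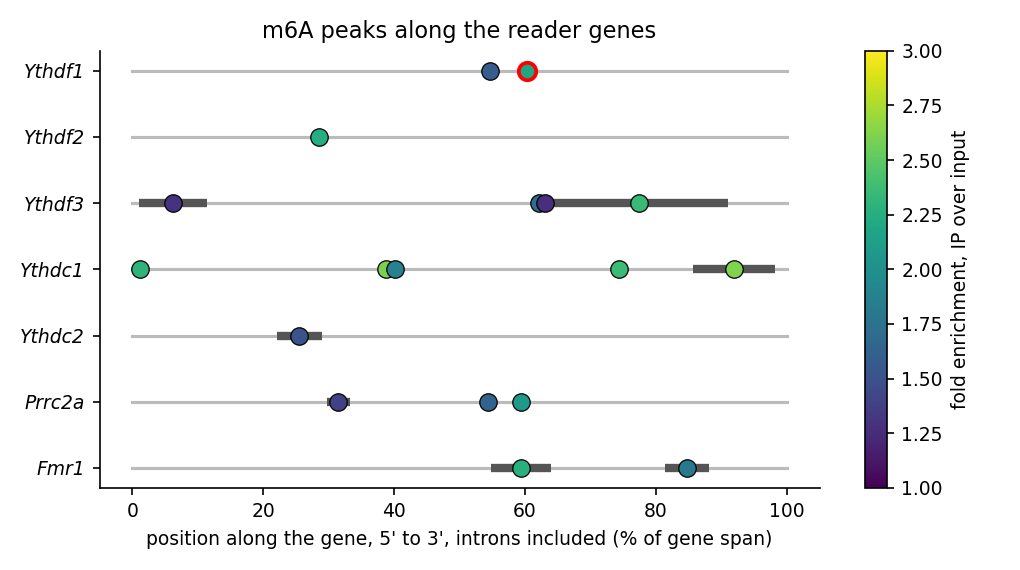
The 18 peaks along their genes, from the 5′ to the 3′ end with introns included (horizontal, percent of the gene span); bars show the span of a peak, circles its middle, and colour its enrichment of IP over input. The red ring marks the second Ythdf1 peak, the only one with a difference p under 0.05, and the Ythdc1 peaks reach from 1.03% to 98.2% of the gene.

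Between the arms, 1 of the 18 reader peaks (5.56%) had a deposited difference p under 0.05, against 4.92% of all peaks, so the readers' share was near the background. It was the second peak of Ythdf1, with a log2 difference of -0.88 (p = 0.0110 by the deposited test across all peaks, FDR = 0.706) in the authors' deposited table. Peaks called with a negative sign made up 1.32% of all. Its p ranked 201 of 13083, and its absolute difference exceeded that of 98.9% of peaks. At an FDR of 0.05, none of the 18 passed, against 0.0229% of all peaks (3 peaks). The neighbouring Ythdf1 peak had -0.22 (p = 0.583) in the authors' deposited table. Whether the 2 peaks differ was not tested, and RNA of Ythdf1 was not called.

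The other 17 peaks had no call in either direction. Those next by p were the first peak of Ythdc1 with 0.34 (p = 0.106), the first peak of Fmr1 with 0.13 (p = 0.159) and the peak of Ythdc2 with 0.57 (p = 0.186), in the authors' deposited table. The 3 peaks of Prrc2a had 0.05, -0.10 and -0.07 from 5′ to 3′, and that of Ythdf2 had 0.02, in the authors' deposited table, beside the positive RNA calls of both genes. The 4 of Ythdf3 had -0.15, 0.18, 0.10 and -0.14, and the other 4 of Ythdc1 had 0.06, -0.03, 0.09 and 0.16, in the authors' deposited table. Fmr1 had 0.15 at its second peak in the authors' deposited table. In sign, 11 of the 18 (61.1%) were positive, beside 60.6% of all peaks, and the median difference was 0.05 in both. The table gives no SE for these differences, so no interval can be set on them.

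**Figure D4:**
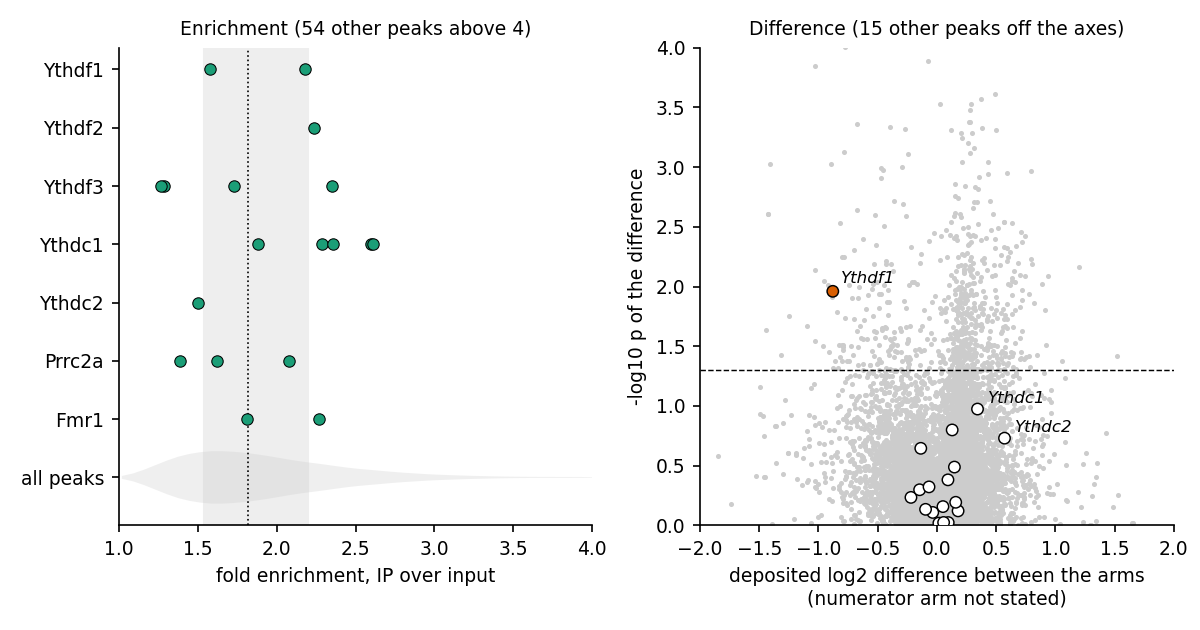
Left, enrichment of IP over input for each reader peak (points) with all peaks below (grey outline, quartiles shaded, median dotted at 1.82); 54 other peaks lie above 4. Right, log2 difference between the arms against −log10 of its p for all peaks (grey) and reader peaks (circles), where the dashed line marks the threshold and the Ythdf1 peak at -0.88 is the one reader peak above it; 15 other peaks lie off the axes.

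Other genes of the m6A pathway were set beside the readers from 7 lists with 61 genes, of which 54 had an adjusted p. The authors' deposited table called 6 of these positive and 1 negative, 7 in all (13.0%), near the 12.2% of all tested genes. Among 10 tested proteins also described as readers, 2 were called, both positive (list median 0.16). They were G3bp1, a stress granule protein, with 0.26 ± 0.07 and Fubp1, which binds single-stranded nucleic acid, with 0.35 ± 0.12 in the authors' deposited table. Of the 4 tested paralogs of the readers, Fxr1, a relative of Fmr1, was called with -0.28 ± 0.10 (adjusted p = 0.0407) in the authors' deposited table. That call was lost when the fold changes of the authors' deposited table were centred on the median of tested genes (adjusted p = 0.0629). Prrc2b and Prrc2c, relatives of Prrc2a, were not called, with 0.06 ± 0.13 and 0.12 ± 0.09 in the authors' deposited table. The neuronal paralogs Elavl2, Elavl3 and Elavl4 were listed at 0 counts.

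No decay partner of YTHDF2 was called. Of 21 tested genes of the CCR4-NOT deadenylase, RNase P/MRP and their links, 16 were positive (median 0.14). By the deposited Wald test none had an adjusted p under 0.05, and 3 had an unadjusted p under 0.05. Over all tested genes 46.7% were positive, 12.2% were called and 25.7% had an unadjusted p under 0.05. The smallest p was that of Upf1, the helicase of nonsense-mediated decay, with 0.35 ± 0.16 in the authors' deposited table (adjusted p = 0.138). Among 4 nuclear partners of YTHDC1, the RNA export receptor Nxf1 was called with 0.19 ± 0.06 (adjusted p = 0.0103) in the authors' deposited table. The exonuclease Xrn1, which binds YTHDC2, had 0.02 ± 0.24 (adjusted p = 0.969) in the authors' deposited table and was the only one of the 3 partners of YTHDC2 that was tested. Of the writer list, 3 of 12 were called positive and none negative (6.07% and 6.11% of all tested genes): Rbm15b, Rbm15 and Mettl3. That list held enzymes that methylate adenosine in RNA and proteins that work with them. Mettl3 was not called when p-values were adjusted over every gene with a p. Neither eraser had an adjusted p under 0.05 by the deposited Wald test, and 1 of the 2, Fto, had an unadjusted p under 0.05.

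Peaks were listed in 32 of these 54 genes (59.3%), beside 44.3% of all tested genes. The shares are not at like counts. Across the count classes the share with a peak rose from 2.34% to 73.7%, and was 58.8% at 1337 to 2038 counts. These 54 genes had means from 128 to 72360 counts and were not matched by count. The largest number, 10, was in Prrc2c, whose relative Prrc2a had 3. Of their 75 peaks, 6 (8%) had a difference p under 0.05, beside 4.92% of all peaks. These were 2 peaks in Prrc2c, with -0.18 and 0.04, and 1 each in Zc3h13 and Wtap of the writer complex (0.23 and 0.24), in the translation factor Eif3a (0.16) and in Cnot3 of CCR4-NOT (0.17), in the authors' deposited table. The FDR of each was at least 0.562. No RNA call was made for any of these 5 genes.

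**Figure D5:**
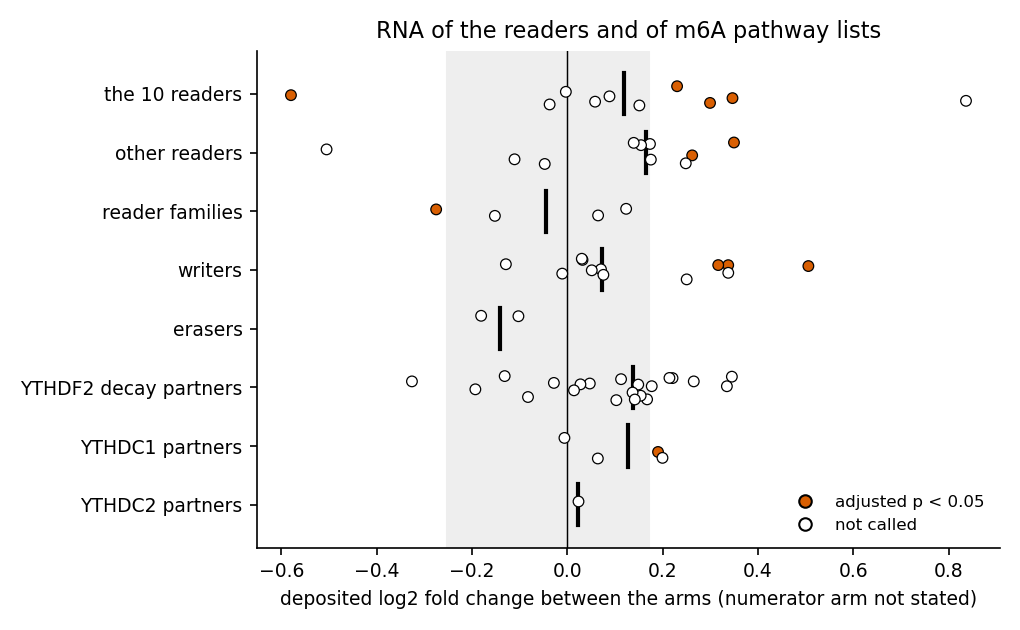
Deposited log2 fold changes of the tested genes in the 10 readers and the 7 pathway lists (points, filled where the adjusted p is under 0.05; vertical scatter is for display), with each list's median as a bar and the quartiles of all tested genes shaded (-0.25 to 0.17). Medians of the readers, other readers, writers, decay partners, YTHDC1 partners and the 1 tested YTHDC2 partner lie on the positive side, at 0.12, 0.16, 0.07, 0.14, 0.13 and 0.02, and those of the reader families and erasers on the negative side, at -0.04 and -0.14.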

How the data were processed

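RNA sequencing and m6A immunoprecipitation followed by sequencing were done on bone of wild type mice, with 16 libraries in all. Libraries titled NC were taken as sham. The treatment field reads ovariectomy for all 8 IP libraries, 4 of them titled NC, and the title was used. Where nothing says that libraries came from separate animals, p-values may measure technical spread. HISAT2, StringTie and DESeq, with the rat build rn6, stand in the submitters' processing notes, with no version or role; the peak caller is not given in the sources used here.

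Per the file headers, the authors deposited for each gene the mean normalised count (a signal scaled by size factors), the log2 fold change with its SE and Wald score, and the p-value before and after adjustment. The adjustment is that of Benjamini and Hochberg over 15396 genes, none under a mean of 12.4 counts. For each peak the authors deposited, per the file headers, log10 values of the p and FDR against input and the enrichment as a fold ratio. The headers also name the log2 difference between arms with its log10 p and FDR. A column headed score was taken as the p-value against input, because its log10 equals the deposited log10 p. Mean counts sum to 43717045 over genes; depth per library is not in the tables, and mean counts are not per length, so they show how many reads stand behind a value and are not compared between genes as expression levels.

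Members and lists were chosen with earlier results of these data known. No test was run on libraries: the deposited tests were read, and 95% intervals are the fold change ± the normal quantile times the SE. All 10 readers and all of their peaks are named. From each list up to 5 called genes, or the one with the smallest p, are named; further genes were chosen after their values were seen. Classes of the mean count are over tested genes. The recomputed Wald and Benjamini-Hochberg steps were checked on simulated data. Tools were Python 3.11.15, numpy 2.4.6, pandas 2.3.3, scipy 1.17.1 and matplotlib 3.10.9. Sequences are from RefSeq GRCm38.p6.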

Additional observations from a re-analysis of the deposited data

How the results depend on the processing

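The 4 reader calls in RNA were the same genes when p-values were adjusted over all 19015 genes with a p, over genes averaging 50 counts or more, after centring on the median of tested genes, and at an adjusted p of 0.1. Of all genes adjusted at each of these settings, 9.13%, 13.9%, 12.8% and 17.7% were called, in that order. The pathway lists, with 7 calls, had 6 when adjusted over all genes with a p (without Mettl3), 6 after centring (without Fxr1) and 9 at an adjusted p of 0.1. At an adjusted p of 0.01 there were 2 reader calls (Elavl1 and Prrc2a), with 3 in the pathway lists. Of all tested genes 882 (5.73%) were called at 0.01, in place of 1875 (12.2%). When fold changes also had to reach 0.3 in absolute log2 size there were 2 (Elavl1 and Igf2bp2), with 4 in the pathway lists. Of all tested genes 10.3% passed at that setting. Prrc2a, at 0.30 after rounding, lay just below. Centring turned Fmr1 to a log2 value of 0.0192, with an adjusted p of 0.937, and changed no other sign among the readers. The m6A count of 1 of 18 peaks was 0 at a difference p of 0.01 and 0 at an FDR of 0.05. It was 1 among the 9 reader peaks with an enrichment of at least 2, and 1 among the 17 with a peak FDR under 1e-5. The shares of all peaks called at a difference p of 0.01 and in these subsets were not computed. These counts therefore have no background beside them and are not read as a rate of the readers. The median enrichment of the readers, 1.98 beside 1.82 over all peaks, was 2.24 beside 1.98 when each gene was represented by its highest peak, and 1.88 beside 1.84 among peaks with a peak FDR under 1e-5. No paired analysis was possible because the tables lack values of single libraries; leaving out each library was not run for the same reason. With a mean of 49.1 counts and an SE of 0.40, the data on Igf2bp3 leave a wide interval.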
